A study of Mus musculus with 48 samples.

Results

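The comparison set 4 mammary tumors of the HRM-1 model against 4 tumors of the MVT-1 model, 8 of the 48 tumors of the series, which holds 4 tumors from each of 12 mouse models. Tumors were chosen by the model in their titles. HRM-1 and MVT-1 are both FVB/N models whose cell lines came from tumors of genetically engineered mice, and each tumor grew from cells placed in the mammary fat pad of immunocompetent mice of the same strain. The labels give no drug or other treatment for either group, and the mice of the study's tumor models were young females. The mouse behind MVT-1 carried Myc and VEGF transgenes, both under MMTV, the promoter of the mouse mammary tumor virus, which is active in mammary epithelium. The transgene behind HRM-1 is not given in the sources used here. Each model is 1 line, so the 4 tumors of a group are independent tumors of the same line and a difference between the groups is a difference between 2 lines. Every tumor was frozen free of surrounding and necrotic tissue and its RNA was hybridized to its own Affymetrix array.

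Mammary tumor cells can keep the features of epithelium, with keratins, E-cadherin and tight junctions that join neighboring cells, or move toward a mesenchymal state in which those genes are silenced by repressors such as Zeb1. Tumor tissue also holds fibroblasts, vessels and immune cells of the host, whose genes enter the same RNA pool. In such bulk tissue, fewer cells of a type and less RNA per cell cannot be told apart.

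Array values were log2 signals from 3.49 to 14.12 with array medians of 6.76 to 6.99, and no detection call accompanied them. A gene at a signal below those medians may therefore be little above background, and a fold against it is a fold of signal. Arrays of the same model correlated at 0.993 to 0.997 in HRM-1 and at 0.989 to 0.995 in MVT-1, and arrays of different groups at 0.975 to 0.982. Epithelial markers differed in how well they marked MVT-1. Krt8, a keratin of simple epithelium, averaged 13.33 ± 0.05 (SD, n = 4) in HRM-1 and 12.91 ± 0.08 (SD, n = 4) in MVT-1, whereas Krt7, Epcam and Elf3 averaged 6.98, 6.43 and 6.05 in MVT-1, at or below the array medians. Single tumors stood apart in host markers. HRM-1 replicate 4 had a B cell marker level of 1.56 where the other HRM-1 tumors lay between -0.15 and -0.08, a level being the mean log2 signal of a list relative to the median of the 48 tumors. MVT-1 replicate 2 had an adipocyte marker level of 1.11 where the other MVT-1 tumors lay between -0.77 and -0.42.

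In all, 4090 of 19938 genes, or 20.5%, differed between HRM-1 and MVT-1 at an adjusted p under 0.05. Signal was higher in HRM-1 for 2281 genes (11.4% of those tested) and lower for 1809 (9.07%), so that 55.8% of the calls were higher. Centring each array moved that share to 66.6% and the median difference of all genes from -0.03 to 0.03. The HRM-1 and MVT-1 tumors did not overlap for 6407 genes (32.1%), among them 3807 of the called genes. Most differences were small, with a median size of 0.51 on the log2 scale, and 802 called genes differed by at least 1, of which 404 were higher and 398 lower. Large differences leaned toward HRM-1: a difference of at least 3 was found for 49 genes higher in HRM-1 and for 11 lower. Without HRM-1 replicate 4 the count of changed genes was 3555, and without MVT-1 replicate 2 it was 3273.

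To place the differences, each called gene was set beside the mean of the other 3 FVB/N models, 6DT1, M6 and Met-1. HRM-1 lay farther from that mean for 2447 called genes and MVT-1 for 1643. This was a share of 59.8% for HRM-1, against 54.6% over all genes tested. Among the genes higher in HRM-1, 737 had their highest mean of the 12 models in HRM-1 and 276 their lowest in MVT-1. Of those lower in HRM-1, 398 had their lowest mean in HRM-1 and 562 their highest in MVT-1.

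Pkhd1, which encodes fibrocystin, a membrane protein of primary cilia in kidney and bile duct epithelium, was the marker gene given for the comparison. The 4 HRM-1 tumors had log2 signals of 8.93, 9.003, 9.08 and 9.14, and the 4 MVT-1 tumors 5.67, 5.62, 5.67 and 5.60. The mean was 9.04 ± 0.09 (SD, n = 4) in HRM-1 and 5.64 ± 0.03 (SD, n = 4) in MVT-1, a difference of 3.40 (95% interval 3.27 to 3.52) or 10.5-fold in signal (adjusted p = 4.9e-33). No HRM-1 tumor came near the MVT-1 tumors, and the exact permutation test of the 8 tumors gave its smallest possible value (p = 0.0286, 2-sided). Pkhd1 was chosen with earlier results of these data known, so its p-values describe the gap and are no independent evidence of it. The means of the other 10 models lay between 5.50 and 5.61, at the level of MVT-1. Of 8 measured genes of cilia and cystic kidney disease, Pkhd1 among them, 2 were higher and 2 lower, with a median difference of -0.06 against -0.03 over all genes. Pkd1, the large membrane protein polycystin, was lower in HRM-1 by -0.91 (8.90 ± 0.14 against 9.81 ± 0.04, SD, n = 4, adjusted p = 2.1e-07). Tmem67, a protein of the ciliary transition zone, was lower by -0.64 (adjusted p = 0.0044; 0.054 when only the FVB/N arrays were fitted). Ift88, needed to build cilia, was higher by 0.38 and lost the call when any 1 of 4 tumors was left out, among them HRM-1 replicate 1 (adjusted p = 0.063) and MVT-1 replicate 1 (adjusted p = 0.080).

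**Figure D1:**
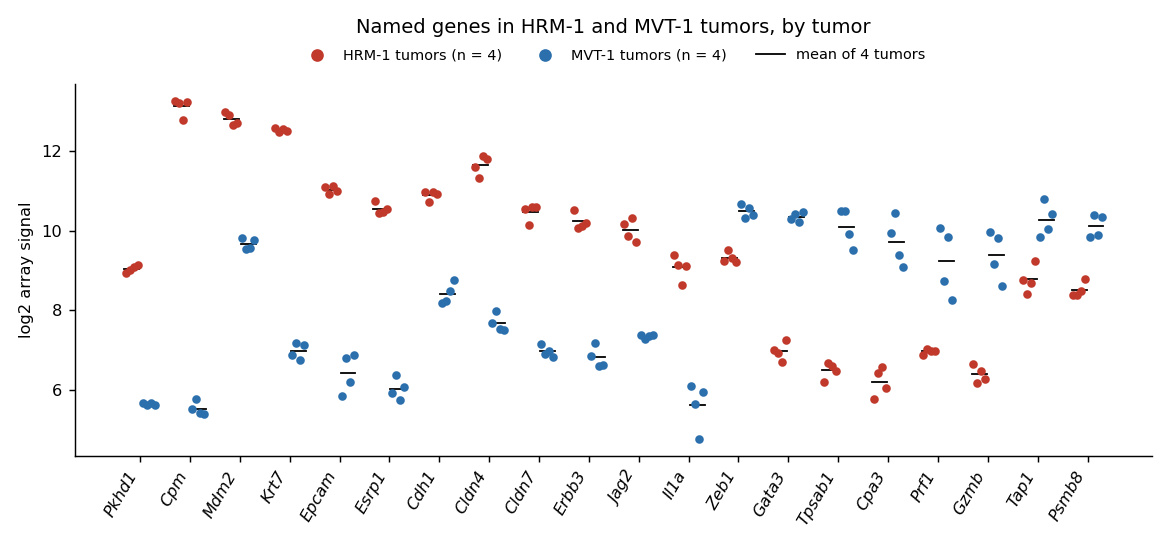
Log2 array signal of named genes in each tumor, with HRM-1 tumors in red, MVT-1 tumors in blue (n = 4 each) and a line at the group mean. Pkhd1 at 8.93 to 9.14 in HRM-1 and 5.60 to 5.67 in MVT-1 opens the series of genes higher in HRM-1, and Zeb1, Gata3, Tpsab1, Cpa3, Prf1, Gzmb, Tap1 and Psmb8 lay lower in HRM-1 without overlap.

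Genes of luminal epithelium and of cell junctions were among the largest increases. Promoters of Epcam and of 3 claudins that differed together are shown for the letters they share. Each runs from 250 bases before the start of the gene to 50 after it, 5′ to 3′ on the strand of the gene, as listed by RefSeq on GRCm38.p6: Epcam at chr17:87635729-87636028 (plus strand), Cldn3 at chr5:134985964-134986263 (plus strand), Cldn4 at chr5:134946885-134947184 (minus strand) and Cldn7 at chr11:69965171-69965470 (plus strand, 1 of 2 promoters listed for the gene). Capitals mark the E2-box, searched as CACCTG and CAGGTG so that both strands are covered, and the E-box of Myc and Max, CACGTG, which reads the same on both strands. E2-boxes are the letters that Zeb and Snail repressors are known to bind.
Epcam: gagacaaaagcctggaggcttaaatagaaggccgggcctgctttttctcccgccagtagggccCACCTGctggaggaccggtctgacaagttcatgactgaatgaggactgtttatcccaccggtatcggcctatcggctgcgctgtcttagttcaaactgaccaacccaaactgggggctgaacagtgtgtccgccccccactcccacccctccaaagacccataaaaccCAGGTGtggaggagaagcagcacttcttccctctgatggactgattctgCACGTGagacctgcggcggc
Cldn3: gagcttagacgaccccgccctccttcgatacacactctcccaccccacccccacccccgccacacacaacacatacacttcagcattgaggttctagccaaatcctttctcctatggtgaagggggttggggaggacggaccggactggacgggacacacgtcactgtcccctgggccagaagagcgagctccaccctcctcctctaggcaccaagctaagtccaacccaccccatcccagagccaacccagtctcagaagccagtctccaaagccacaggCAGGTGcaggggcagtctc
Cldn4: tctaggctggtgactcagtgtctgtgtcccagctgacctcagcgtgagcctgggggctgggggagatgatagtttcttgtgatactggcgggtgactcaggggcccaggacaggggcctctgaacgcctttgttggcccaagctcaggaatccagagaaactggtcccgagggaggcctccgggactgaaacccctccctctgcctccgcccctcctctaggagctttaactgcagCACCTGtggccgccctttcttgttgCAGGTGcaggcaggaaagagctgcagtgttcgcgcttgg
Cldn7: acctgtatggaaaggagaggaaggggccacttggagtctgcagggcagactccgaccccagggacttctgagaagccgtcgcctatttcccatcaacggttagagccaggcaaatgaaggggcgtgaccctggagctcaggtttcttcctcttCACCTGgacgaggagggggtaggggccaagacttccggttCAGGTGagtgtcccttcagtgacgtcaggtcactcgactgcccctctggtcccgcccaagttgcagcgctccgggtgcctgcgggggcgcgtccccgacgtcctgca

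Epcam, Cldn4 and Cldn7 each held 2 E2-boxes in this window and Cldn3 held 1, while Epcam alone of the 4 held the E-box. The Cldn7 window was picked from the 2 listed by its number of marked motifs, so its count depends on that choice. Pkhd1, Cpm and Mdm2, which were also higher in HRM-1, held neither motif in their windows. An E2-box was found in 20.2% of all 32851 promoters listed. Counted by gene, where a match in any promoter of the gene was enough, it was found in 22.2% of the 15563 tested genes with a promoter. Among genes higher in HRM-1 the share was 23.3% and among genes lower 21.6%, close to the 22.1% of the genes that were not called. For differences of at least 1 the shares were 39.0% of 300 higher genes and 17.01% of 288 lower genes. A match is a description of letters, and the motif was chosen after the differences were known.

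Of 16 luminal genes measured, 6 were higher in HRM-1 and 1 was lower, where 11.4% of all genes were higher and 9.07% lower. The median difference was 0.39 against -0.03 over all genes. Krt7, a keratin of simple epithelia, was measured at 12.58, 12.47, 12.55 and 12.51 in HRM-1 and at 6.87, 7.17, 6.74 and 7.12 in MVT-1, a difference of 5.55 (adjusted p = 2.3e-10). Epcam, an epithelial cell adhesion molecule, was measured at 11.09, 10.92, 11.11 and 11.01 in HRM-1 and at 5.85, 6.80, 6.19 and 6.88 in MVT-1, a difference of 4.60 (adjusted p = 1.2e-06). In both genes all HRM-1 tumors lay together far above all MVT-1 tumors, and Krt7 had its highest mean of the 12 models in HRM-1 and ranked 11 in MVT-1. For Epcam HRM-1 ranked 4 and MVT-1 11. The other FVB/N models were split, with 6DT1 at 8.19 for Krt7 and 8.08 for Epcam. M6 averaged 11.25 and 11.58 for these genes, and Met-1 11.01 and 11.17. Low means were also found outside FVB/N, in D2A1 (6.93 and 6.31), E0771 (7.48 and 6.87) and EMT-6 (7.72 and 7.13). MVT-1 lay farther than HRM-1 from the mean of the other 3 FVB/N models for both genes, with that mean at 10.15 for Krt7 and 10.28 for Epcam. The same held for Elf3, Krt19, Cdh1, Krt14, Esrp1, Esrp2, Grhl2, Ovol1, Lad1, Rab25, Cldn3, Cldn7 and Marveld2, while HRM-1 lay farther for Krt18, Fermt1 and Cldn4. Elf3, an epithelial transcription factor, was higher by 3.51 (9.55 ± 0.46 against 6.05 ± 0.18, SD, n = 4, adjusted p = 8.1e-12). Krt19 was higher by 3.99, with MVT-1 tumors spread from 6.36 to 8.72 (adjusted p = 6.1e-05). Cdh1, which encodes E-cadherin, was higher by 2.48 (10.90 ± 0.12 against 8.41 ± 0.27, SD, n = 4, adjusted p = 3.1e-05), and Krt18 by 1.19 (adjusted p = 0.033). The difference of 0.42 in Krt8 did not pass (adjusted p = 0.11).

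Gata3, the transcription factor that maintains luminal identity, ran the other way. Its log2 signal was 7.003, 6.92, 6.69 and 7.25 in HRM-1 and 10.31, 10.41, 10.23 and 10.46 in MVT-1, a difference of -3.39 (adjusted p = 1.3e-08). All HRM-1 tumors lay below all MVT-1 tumors, and HRM-1 had the lowest mean Gata3 of the 12 models. Of 10 basal and myoepithelial genes only Krt14, a keratin of basal cells, passed, with 10.65 ± 0.34 in HRM-1 and 6.95 ± 0.40 in MVT-1 (SD, n = 4, adjusted p = 3.8e-06). Its partner keratin Krt5 had a difference of 0.60 (adjusted p = 0.74), and Trp63, the transcription factor of basal cells, a difference of -0.12 (adjusted p = 0.87). None of 7 milk protein genes passed in either direction. Over all genes 20.5% were called, and neither this count nor the 1 of 10 basal genes is read as a trait of its list.

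Claudins, which form the strands of tight junctions, and their partners were higher in HRM-1 in many members. Of 15 measured, 8 were higher in HRM-1 and 0 lower, with a median difference of 0.97, where 11.4% of all genes were higher. The count of 8 was the same without each tumor in turn. Cldn4 was measured at 11.59, 11.31, 11.86 and 11.80 in HRM-1 and at 7.68, 7.99, 7.52 and 7.49 in MVT-1, a difference of 3.97 (adjusted p = 1.7e-09). Cldn7 differed by 3.51 (adjusted p = 4.5e-11) and Cldn3 by 3.45 (adjusted p = 5.2e-10), again with no overlap of the tumors. Marveld2, or tricellulin, which seals the points where cells meet, was higher by 2.37 (8.44 ± 0.27 against 6.07 ± 0.11, SD, n = 4, adjusted p = 9.8e-11). Among the 12 largest increases were also genes that no list held. Lad1, a protein of the basement membrane anchor, differed by 4.49 (adjusted p = 4.2e-11), Rab25, a GTPase of epithelial membrane recycling, by 4.42 (adjusted p = 1.4e-07), and Fermt1, an adaptor of integrins, by 4.26 (adjusted p = 3.7e-09). Serpinb5, the serpin maspin, was higher by 4.78, Tmprss11e, a membrane serine protease, by 4.86, S100a14 by 4.35, Mpzl2 by 4.39, and Phlda2, an imprinted growth regulator, by 4.49.

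Regulators of the epithelial and mesenchymal states split by direction. Of 16 measured, 4 were higher and 3 lower in HRM-1, with a median of 0.12, where 20.5% of all genes were called. Esrp1, a splicing factor of epithelial cells, was measured at 10.74, 10.45, 10.47 and 10.56 in HRM-1 and at 5.93, 6.38, 5.73 and 6.08 in MVT-1, a difference of 4.52 (adjusted p = 9.5e-08). Grhl2, a transcription factor that sustains epithelial genes, differed by 2.67 (adjusted p = 1.5e-07), Esrp2 by 2.63 (adjusted p = 2.2e-06) and Ovol1 by 1.21 (adjusted p = 0.00018). All 4 are known to favor the epithelial state. The 3 lower genes are known from the mesenchymal state. Zeb1, the repressor, was measured at 9.23, 9.52, 9.31 and 9.22 in HRM-1 and at 10.67, 10.32, 10.56 and 10.38 in MVT-1, a difference of -1.17 (adjusted p = 0.0011), and MVT-1 had the highest mean of the 12 models. Twist2 was lower by -1.14 (adjusted p = 0.0022) and Vim, the intermediate filament vimentin, by only -0.15 (13.30 ± 0.05 against 13.44 ± 0.04, SD, n = 4, adjusted p = 0.0094). Snai1, Snai2, Twist1 and Zeb2 had differences of 0.24, 0.29, 0.05 and -0.25 that did not pass (adjusted p from 0.45 to 0.90).

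**Figure D2:**
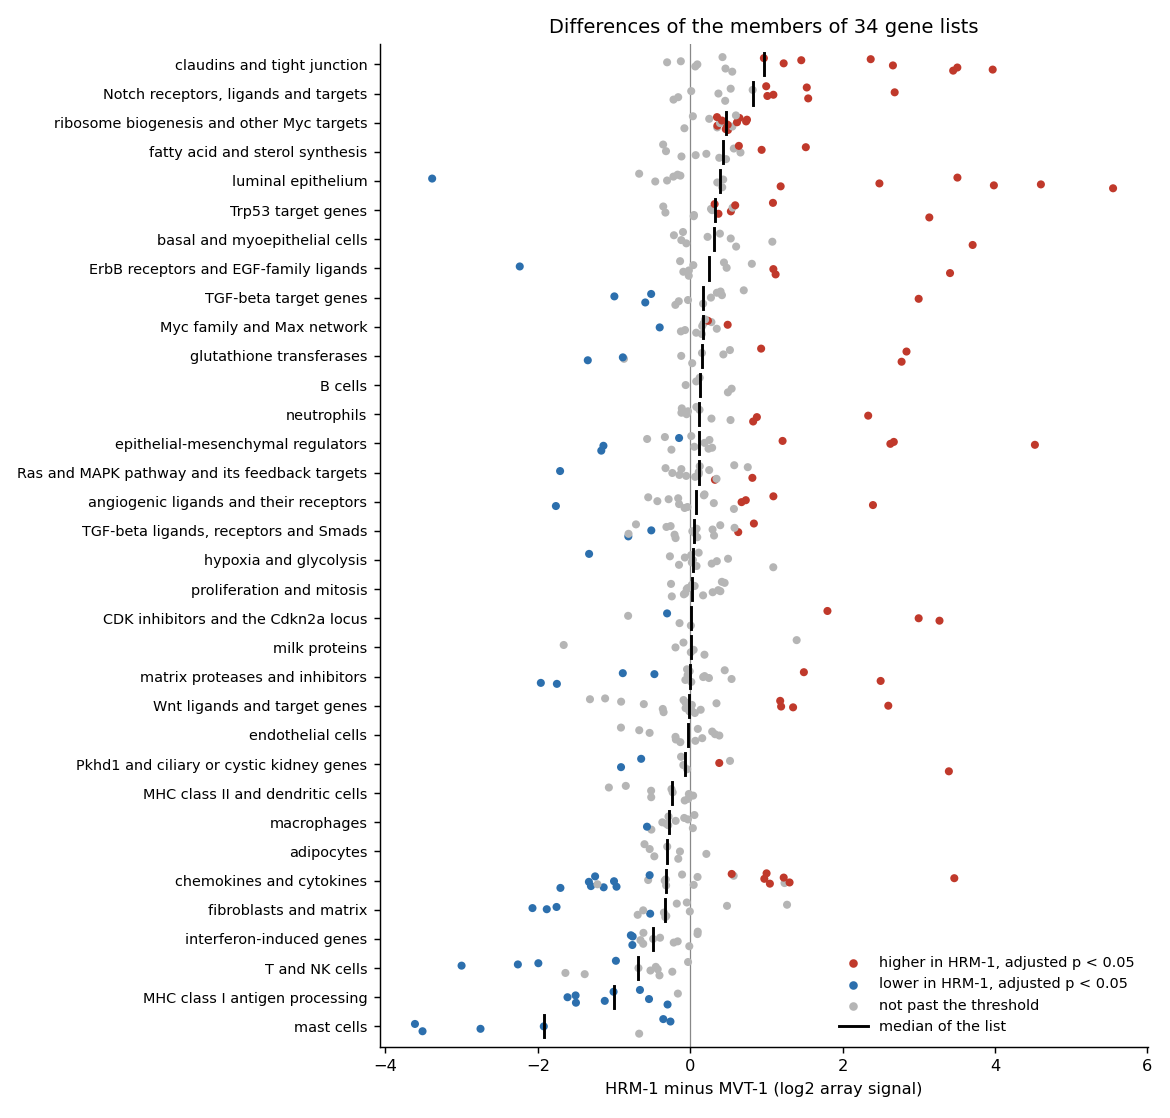
Difference in log2 array signal, HRM-1 minus MVT-1, of every measured member of 34 gene lists, 1 point per gene, with red points higher and blue points lower in HRM-1 at an adjusted p under 0.05, gray points not past it, and a bar at the list's median. The claudin list has its median at 0.97 and only red or gray points, while the mast cell and MHC class I lists have medians of -1.92 and -1.01 and only blue or gray points.

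The largest difference of all belonged to a block of neighboring genes on chromosome 10 in which HRM-1 had the highest means of the 12 models. Cpm, a carboxypeptidase of the cell membrane, was measured at 13.27, 13.22, 12.77 and 13.23 in HRM-1 and at 5.52, 5.77, 5.41 and 5.39 in MVT-1, a difference of 7.60 (adjusted p = 1.5e-12). The next gene, Mdm2, encodes the ubiquitin ligase that holds Trp53 low, and was measured at 12.98, 12.91, 12.65 and 12.71 in HRM-1 and at 9.82, 9.55, 9.56 and 9.77 in MVT-1, a difference of 3.14 (adjusted p = 1.1e-20). In both genes the groups lay far apart. The run went on with Slc35e3 (3.595), Nup107 (3.36), Rap1b (1.07), Mdm1 (4.16) and Iltifb (0.48), 7 adjacent measured genes that were all higher in HRM-1, with a median of 3.36. The mean of HRM-1 exceeded the highest mean of the other 10 models by 5.04 for Cpm, by 2.55 for Mdm2 and by 3.20 for Mdm1 on the log2 scale. Iltifb has a near-identical neighbor, so its signal is uncertain. The block had edges on both sides. Cpsf6, Lyz1 and Lyz2 before Cpm had differences of -0.05, -0.56 and 0.01, and Ifng, Dyrk2 and Cand1 after Iltifb -0.46, 0.14 and 0.21, and none of the 6 passed. Within the block HRM-1 replicate 3 had the lowest signal of the HRM-1 tumors for Cpm, Mdm2, Slc35e3, Nup107, Rap1b and Iltifb, for example 11.10 in Nup107 against 11.83 to 12.00 in the others. DNA copy number was not measured in these tumors.

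On chromosome 4, Cdkn2a and Cdkn2b, which encode inhibitors of the kinases that start the cell cycle, were both high in HRM-1. Cdkn2a was measured at 10.68, 10.50, 10.64 and 10.41 in HRM-1 and at 7.38, 7.36, 7.14 and 7.26 in MVT-1, a difference of 3.27 (adjusted p = 3.5e-09), and Cdkn2b differed by 2.999 (adjusted p = 2.8e-10). HRM-1 ranked highest of the 12 models in both, although TS/A-E1 came close with means of 10.43 and 10.12. Mtap, the neighboring gene of methionine salvage, was 10.55, 10.62, 10.54 and 10.66 in HRM-1 and 9.95, 7.98, 9.59 and 7.63 in MVT-1 (difference 1.80, adjusted p = 0.00061). MVT-1 replicates 1 and 3 thus stood near the HRM-1 tumors for Mtap and replicates 2 and 4 well below them. Of 7 CDK inhibitor and locus genes, 3 were higher and 1 was lower, where 20.5% of all genes were called. The lower one, Cdkn2d, had a difference of -0.30 and lost its call under 13 of the alternative settings.

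Of 13 target genes of Trp53, the tumor suppressor that acts on DNA damage, 6 were higher in HRM-1 and 0 lower, with a median of 0.32. By comparison, 11.4% of all genes were higher. Mdm2 is itself one of the 6. Aen, an exonuclease of apoptosis, was higher by 0.59 (adjusted p = 0.00071), Ccng1 by 0.37 (adjusted p = 0.0035) and Perp, a desmosome protein, by 1.09 (adjusted p = 0.038). Without HRM-1 replicate 1 the count fell to 3 of 13. None of 15 proliferation genes passed. Mki67 and Top2a, which mark dividing cells, had differences of -0.24 (adjusted p = 0.40) and 0.17 (adjusted p = 0.71).

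**Figure D3:**
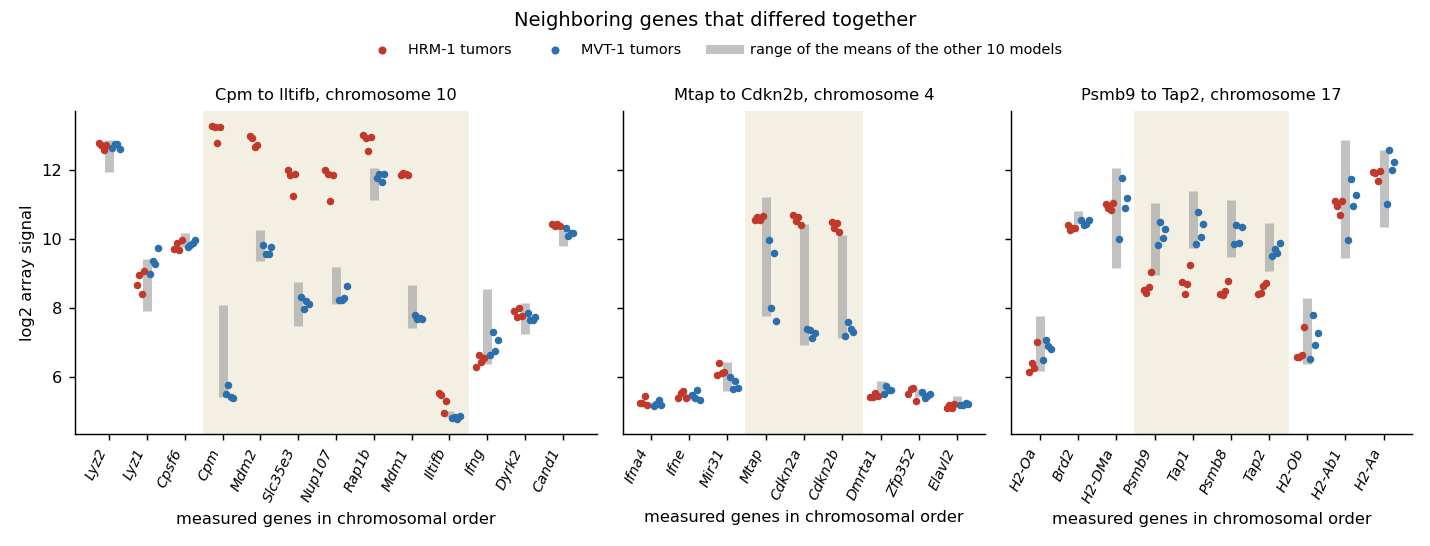
Log2 array signal of neighboring measured genes in chromosomal order in 3 regions, with HRM-1 tumors in red, MVT-1 tumors in blue, the range of the means of the other 10 models in gray and the genes described shaded. On chromosome 10 the HRM-1 means leave the gray range from Cpm to Iltifb and are within it at Cpsf6 and Ifng, and on chromosome 17 the HRM-1 means of Psmb9, Tap1, Psmb8 and Tap2 lie below it, with differences from MVT-1 of -1.12 to -1.61.

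Over the genome, 21 runs of at least 4 adjacent measured genes were higher in HRM-1, with 100 genes in all, and 10 runs with 44 genes were lower. A second run of 7 genes, on chromosome 7, was lower in HRM-1, from Isoc2b through Zfp628, Nat14, Ssc5d, Sbk2 and Sbk3 to Zfp579, with a median of -0.82. In this run Ssc5d, a secreted scavenger receptor, differed by -1.77 (adjusted p = 1.7e-07) and Zfp579 by -1.16 (adjusted p = 1.5e-10), while Zfp628 lost its call under 11 settings. A run of 6 on chromosome 5, from Cldn12 to Steap1, was higher with a median of 1.36. The share of genes higher in HRM-1 was 21.8% on chromosome 5 (248 of 1140) and 21.5% on chromosome 12, against 11.4% over all genes. Chromosomes 4, 6, 7, 15 and 18 had shares of 5.20%, 4.64%, 4.79%, 6.42% and 5.10% higher, and of 14.7%, 13.01%, 12.7%, 13.5% and 14.01% lower against 9.07% over all genes.

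**Figure D4:**
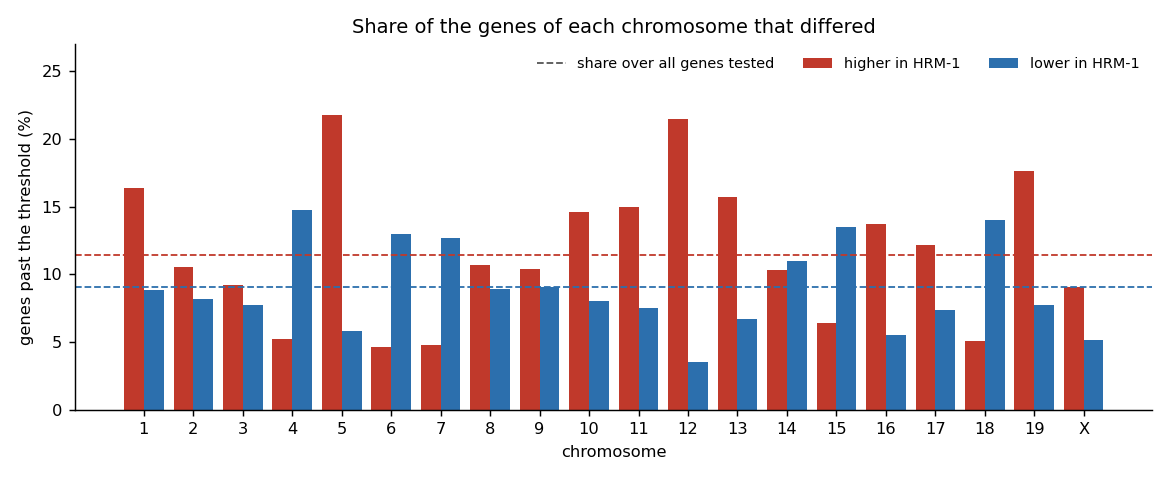
Percentage of the measured genes of each chromosome that were higher (red) or lower (blue) in HRM-1 at an adjusted p under 0.05, with dashed lines at the shares over all genes tested, 11.4% and 9.07%. Chromosomes 5 and 12 have the tallest red bars at 21.8% and 21.5%, and chromosome 4 has the tallest blue bar at 14.7%.

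Myc, the transcription factor whose transgene gave rise to MVT-1, was high in both models, with the highest mean of the 12 in HRM-1 and the next in MVT-1. Its log2 signal was 12.81, 12.85, 12.67 and 12.67 in HRM-1 and 12.65, 12.57, 12.65 and 12.51 in MVT-1. The difference of 0.15 (95% interval -0.35 to 0.65) did not pass (adjusted p = 0.755), although all HRM-1 tumors lay above all MVT-1 tumors (exact permutation p = 0.0286, 2-sided). Whether the array detects RNA of the transgenes is not given in the sources used here. Of 12 genes of the Myc family and the Max network 3 passed, and each of the 3 lost its call under 6 or more settings. Among 18 genes of ribosome biogenesis and other Myc targets, 11 were higher in HRM-1 and 0 lower, with a median of 0.47. By comparison, 11.4% of all genes were higher. Rrp12, which acts in ribosome assembly, was higher by 0.73 (8.69 ± 0.15 against 7.96 ± 0.13, SD, n = 4, adjusted p = 1.7e-05), Ncl, or nucleolin, by 0.50 (adjusted p = 0.00049), Nolc1 by 0.49 (adjusted p = 0.0030) and Cdk4 by 0.35 (adjusted p = 0.00035). With only the FVB/N arrays fitted 4 of the 18 were higher. Counted by single promoter, the E-box CACGTG was found in 7.15% of all promoters listed. The other shares count a gene once if any of its promoters held it, which is a different unit. It was found for 2 of the 14 genes of this list with a promoter. Among genes higher in HRM-1 the share was 12.6%, among those lower 10.9% and among those not called 8.89%, against 9.52% of all genes tested. For differences of at least 1 the order turned, with 9.0% of higher and 10.8% of lower genes.

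Vegfa, which encodes the main growth factor of vessels and names the second transgene of the MVT-1 mouse, had signals of 11.22, 11.12, 11.31 and 10.82 in HRM-1 and of 10.97, 9.95, 10.37 and 10.88 in MVT-1. The groups overlapped and the difference of 0.57 (95% interval 0.08 to 1.07) did not pass (adjusted p = 0.094, exact permutation p = 0.0857). It passed without MVT-1 replicate 1, at 0.72 (adjusted p = 0.048). Of 16 angiogenic ligands and receptors, 4 were higher and 1 lower, where 20.5% of all genes were called. Pgf, a ligand of the same family, was measured at 10.43, 10.69, 10.87 and 10.32 in HRM-1 and spread from 7.08 to 9.21 in MVT-1 (difference 2.40, adjusted p = 0.0056). Nrp2, a coreceptor, was higher by 0.73 (adjusted p = 0.0014), and Vegfd, a lymphatic growth factor, was lower by -1.76 (7.81 ± 0.48 against 9.57 ± 0.08, SD, n = 4, adjusted p = 0.0010). None of 12 endothelial marker genes passed, with a median of -0.03.

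TGF-β isoforms, the subject of the study, are ligands that restrain epithelial growth and act on matrix and immune cells. Tgfb1 was measured at 10.97, 11.02, 11.02 and 11.01 in HRM-1 and at 11.29, 11.10, 11.16 and 11.22 in MVT-1, a difference of -0.19 (95% interval -0.53 to 0.15, adjusted p = 0.495). The tumors did not overlap (exact permutation p = 0.0286), and the difference passed when only the 8 arrays were fitted (adjusted p = 0.0195). Tgfb2 was measured at 8.03, 7.65, 7.89 and 8.24 in HRM-1 and at 7.78, 7.54, 8.90 and 7.20 in MVT-1, with broad overlap and a difference of 0.09 (95% interval -0.65 to 0.83, adjusted p = 0.914) whose sign turned without HRM-1 replicate 4, MVT-1 replicate 2 or MVT-1 replicate 4. Tgfb3 alone of the isoforms passed. Its signal was 10.17, 10.19, 10.29 and 10.08 in HRM-1 and 11.11, 10.99, 11.12 and 10.77 in MVT-1, lower in HRM-1 by -0.81 (95% interval -1.19 to -0.44, adjusted p = 0.0011). Of 18 ligands, receptors and Smads, 2 were higher and 2 lower, a share near the 20.5% over all genes. Smad3, which carries the signal to the nucleus, was higher by 0.63 (adjusted p = 0.0010) and the inhibitory Smad6 lower by -0.51 (adjusted p = 0.0038). Of 13 target genes 1 was higher, Cdkn2b of the chromosome 4 locus above, and 3 were lower, where 20.5% of all genes were called. Id2, a target that TGF-β is known to repress in epithelium, was lower by -0.99 (10.70 ± 0.09 against 11.70 ± 0.09, SD, n = 4, adjusted p = 1.8e-05), and Ski, a corepressor of Smads, by -0.51 (adjusted p = 2.5e-09). Tgfbi was lower as well, by -0.59 (adjusted p = 0.014).

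Notch and ErbB genes were higher in HRM-1 where they passed, with 1 exception. By comparison, 11.4% of all genes were higher and 20.5% were called. Of 13 receptors, ligands and targets of the Notch pathway, in which ligands on one cell act on receptors of its neighbor, 6 were higher and 0 lower, with a median of 0.82, and the count stayed at 6 without each tumor. The ligand Jag2 was measured at 10.16, 9.87, 10.32 and 9.72 in HRM-1 and at 7.37, 7.27, 7.34 and 7.37 in MVT-1, a difference of 2.68 (adjusted p = 3.0e-14) that left no overlap. The target Heyl was higher by 1.53 (9.32 ± 0.28 against 7.79 ± 0.27, SD, n = 4, adjusted p = 2.2e-07), and the ligands Dll4 and Dll1 by 1.09 (adjusted p = 5.2e-05) and 1.01 (adjusted p = 2.6e-05). HRM-1 had the highest mean of the 12 models for Jag2 and Heyl. Among 12 ErbB receptors and EGF-family ligands, 3 were higher and 1 lower. Erbb3, a receptor that pairs with Erbb2, was measured at 10.53, 10.07, 10.12 and 10.20 in HRM-1 and at 6.86, 7.19, 6.60 and 6.63 in MVT-1, a difference of 3.41 (adjusted p = 4.2e-06). Erbb2 was higher by 1.12 (adjusted p = 1.0e-05) and the ligand Tgfa by 1.09 (adjusted p = 0.00015). Epgn, or epigen, was the exception at -2.24 (5.53 ± 0.14 against 7.77 ± 0.46, SD, n = 4, adjusted p = 5.6e-12), and MVT-1 had its highest mean of the 12 models.

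Of 19 Wnt ligands and targets, 4 were higher in HRM-1 and 0 lower, with a median of -0.01, and of 16 Ras and MAPK genes 2 were higher and 1 lower. Both shares were near the 20.5% of all genes that were called. Wnt10a was measured at 11.10, 10.68, 10.99 and 10.68 in HRM-1 and at 8.35, 8.19, 8.47 and 8.04 in MVT-1, a difference of 2.60 (adjusted p = 3.5e-09), and all HRM-1 tumors lay above all MVT-1 tumors. Wnt7a was higher by 1.35 (adjusted p = 3.5e-08) and Notum, a secreted inhibitor of Wnt proteins, by 1.18 (adjusted p = 0.011), while the call of Wnt7b (1.19) was lost under 9 settings. Among the Ras and MAPK genes Etv1, an ETS transcription factor, was lower by -1.71 (9.41 ± 0.22 against 11.11 ± 0.22, SD, n = 4, adjusted p = 4.6e-05), Dusp5, a phosphatase that dampens ERK, was higher by 0.82 (adjusted p = 0.0045), and Nras had a difference of 0.32 (adjusted p = 0.024) that no longer passed without HRM-1 replicate 4, MVT-1 replicate 2 or MVT-1 replicate 3 (adjusted p = 0.056 to 0.078).

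Fibroblast and matrix genes were lower in HRM-1 where they passed, in 4 of 14 with a median of -0.34. By comparison, 9.07% of all genes were lower and 20.5% were called. The largest difference the other way was 1.27 and did not pass. With only the 8 arrays of the comparison fitted, 1 of the 14 was higher and 6 were lower. Pdgfra, a receptor that marks fibroblasts, was measured at 7.93, 7.99, 9.17 and 8.04 in HRM-1 and at 10.28, 9.92, 10.57 and 9.39 in MVT-1, a difference of -1.75 (adjusted p = 0.00025). Dcn, the matrix proteoglycan decorin, differed by -1.88 (adjusted p = 0.0010). HRM-1 replicate 3 was the highest HRM-1 tumor in both, yet the groups did not overlap. The related Lum had a difference of -2.07 (adjusted p = 0.019) that was lost without HRM-1 replicate 1, HRM-1 replicate 2 or MVT-1 replicate 2. Of 16 matrix proteases and inhibitors, 2 were higher and 4 lower. Mmp9, a gelatinase, was measured at 11.16, 10.81, 10.75 and 10.77 in HRM-1 and at 8.54, 8.26, 8.45 and 8.24 in MVT-1 (difference 2.50, adjusted p = 0.00067), and Plau, the urokinase that activates plasminogen, differed by 1.49 (adjusted p = 2.0e-05) with the highest mean of the 12 models in HRM-1. The stromal proteases Mmp2 and Mmp3 ran the other way, at -1.75 (adjusted p = 0.00040) and -1.96 (adjusted p = 0.00032), and HRM-1 had the lowest mean of the 12 models for both. Fibroblast marker levels were -0.81 to -0.09 in HRM-1 and -0.24 to 0.16 in MVT-1, and their part in these differences was not tested.

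Metabolic lists differed in their share of calls, and the fatty acid and sterol list was near the 20.5% over all genes. Of 12 genes of fatty acid and sterol synthesis 3 were higher, all of the sterol branch, led by Idi1, an enzyme of isoprenoid synthesis, at 9.91 ± 0.03 in HRM-1 and 8.40 ± 0.36 in MVT-1 (SD, n = 4, adjusted p = 1.0e-06). Hmgcs1 was higher by 0.94 (adjusted p = 0.00018) and Fdps by 0.64 (adjusted p = 0.0018). Among 11 glutathione transferases, which detoxify reactive compounds, Gstt1 (2.84), Gsta4 (2.77) and Gstt3 (0.93) were higher and Gstm1 (-1.34) and Gstm3 (-0.88) lower. The call of Gstm3 was lost without HRM-1 replicate 3 (adjusted p = 0.061). Of 13 hypoxia and glycolysis genes Egln3, an oxygen-sensing hydroxylase, was the 1 that passed, at -1.33 (adjusted p = 0.0040).

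Mast cell genes gave the clearest difference among host markers, with 6 of 7 lower in HRM-1, 0 higher and a median of -1.92. By comparison, 9.07% of all genes were lower. Mast cells are granulocytes of tissue that store tryptases, chymases and a carboxypeptidase. Tpsab1, a tryptase, was measured at 6.20, 6.67, 6.61 and 6.47 in HRM-1 and at 10.48, 10.49, 9.91 and 9.52 in MVT-1, a difference of -3.61 (adjusted p = 6.2e-12). Cpa3, the mast cell carboxypeptidase, was measured at 5.77, 6.43, 6.58 and 6.05 in HRM-1 and at 9.95, 10.44, 9.40 and 9.09 in MVT-1, a difference of -3.51 (adjusted p = 0.00075). HRM-1 tumors lay below the array medians in both genes and MVT-1 tumors well above them. The chymase Mcpt4 differed by -2.75 (adjusted p = 0.0021). Mcpt2, a chymase of mucosal mast cells outside the list, had the largest decrease of all at -5.01 (adjusted p = 1.0e-09), with 4.59 to 4.90 in HRM-1 and a wide spread of 7.66 to 10.79 in MVT-1. Ms4a2, a chain of the IgE receptor, differed by -0.26 (adjusted p = 0.0025), at a low signal in both groups. Mast cell marker levels were -1.23 to -0.83 in HRM-1 and 0.53 to 1.21 in MVT-1. Proteases of this family resemble one another in sequence, so signal can be shared between members.

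Genes of T and NK cells were lower in 4 of 13, with none higher and a median of -0.68. By comparison, 9.07% of all genes were lower and 20.5% were called. Gzmb, a granule protease of killer cells, was measured at 6.65, 6.17, 6.48 and 6.28 in HRM-1 and at 9.97, 9.17, 9.82 and 8.62 in MVT-1, a difference of -3.0 (adjusted p = 1.2e-06). Prf1, the pore protein perforin, was measured at 6.88, 7.02, 6.99 and 6.98 in HRM-1 and at 10.06, 8.74, 9.85 and 8.24 in MVT-1, a difference of -2.26 (adjusted p = 5.6e-06). In MVT-1 replicates 1 and 3 were the higher tumors for both, and also for Gzmc (10.67 and 10.70 against 8.52 and 8.39) and Gzmf (11.04 and 10.68 against 7.88 and 6.25), related granzymes that differed by -3.04 and -3.0. The difference of Gzmf did not pass the methods' t-test (adjusted p = 0.11). Ncr1, a receptor of NK cells, was lower by -1.99 (5.43 ± 0.22 against 7.42 ± 0.50, SD, n = 4, adjusted p = 5.7e-07). T cell genes proper had differences that did not pass, of -1.38 for Cd3e (adjusted p = 0.077) and -0.52 for Cd8a (adjusted p = 0.48). Foxp3, the factor of regulatory T cells, passed with overlapping tumors (-0.97, adjusted p = 0.022) and lost the call under 7 settings. T and NK marker levels were -0.91 to -0.82 in 3 HRM-1 tumors, 0.12 in HRM-1 replicate 4 and 0.04 to 1.03 in MVT-1. Without HRM-1 replicate 4 the count of lower genes was 6 with a median of -1.07, and without MVT-1 replicate 2 it was 3 with a median of -0.39.

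Antigen processing for MHC class I is the pathway that cuts and carries peptides for display to T cells. It was lower in HRM-1 in 8 of 9 genes, with a median of -1.01, where 9.07% of all genes were lower. Tap1, a subunit of the peptide transporter, was measured at 8.76, 8.41, 8.69 and 9.23 in HRM-1 and at 9.83, 10.79, 10.04 and 10.43 in MVT-1, a difference of -1.50 (adjusted p = 8.3e-07). Psmb8, a subunit of the immunoproteasome, was measured at 8.39, 8.38, 8.48 and 8.77 in HRM-1 and at 9.84, 10.40, 9.88 and 10.34 in MVT-1, a difference of -1.61 (adjusted p = 1.2e-08). The highest HRM-1 tumor was replicate 4 in both genes, and it stayed below every MVT-1 tumor. Their neighbors Psmb9 and Tap2 differed by -1.50 (adjusted p = 4.7e-08) and -1.12 (adjusted p = 3.2e-09), which makes the 4 adjacent genes on chromosome 17 a run of their own. Nlrc5, the transcriptional activator of the pathway, was lower by -1.01 (adjusted p = 5.1e-06) and B2m, the light chain of MHC class I, by -0.30 (12.57 ± 0.20 against 12.86 ± 0.03, SD, n = 4, adjusted p = 0.0059). HRM-1 had the lowest mean of the 12 models for all 6 of these genes, while MVT-1 ranked between 5 and 8. The count was 7 or 8 without each tumor in turn.

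MHC class II and dendritic cell genes did not follow. None of 10 passed, and H2-Aa, H2-Ab1 and Cd74 had differences of -0.07, -0.02 and 0.04. Of 13 interferon-induced genes 3 were lower, with a median of -0.49, a share of calls near the 20.5% over all genes. The count ran from 1 to 6 as single tumors were left out. It was 1 without MVT-1 replicate 3, 5 without HRM-1 replicate 4 and 6 without MVT-1 replicate 4. Stat2, which carries the type I interferon signal, was lower by -0.78 (adjusted p = 0.0015), whereas Irf7 (-0.75) lost its call under 9 settings and Ifit2 (-0.76) under 4. Levels of T and NK genes were set beside those of the MHC class II and interferon lists. HRM-1 replicate 4 was the highest HRM-1 tumor in all of them, at 0.12, -0.13 and -0.07. Among MVT-1 tumors replicate 1 was lowest in T and NK genes (0.04) and in MHC class II genes (-0.93). Replicate 2 was the highest MVT-1 tumor in both (1.03 and 0.60). MVT-1 replicate 4 had a T and NK level of 0.41 and the lowest interferon level of its group, -0.75. The part of T and NK cells in the differences was not tested.

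**Figure D5:**
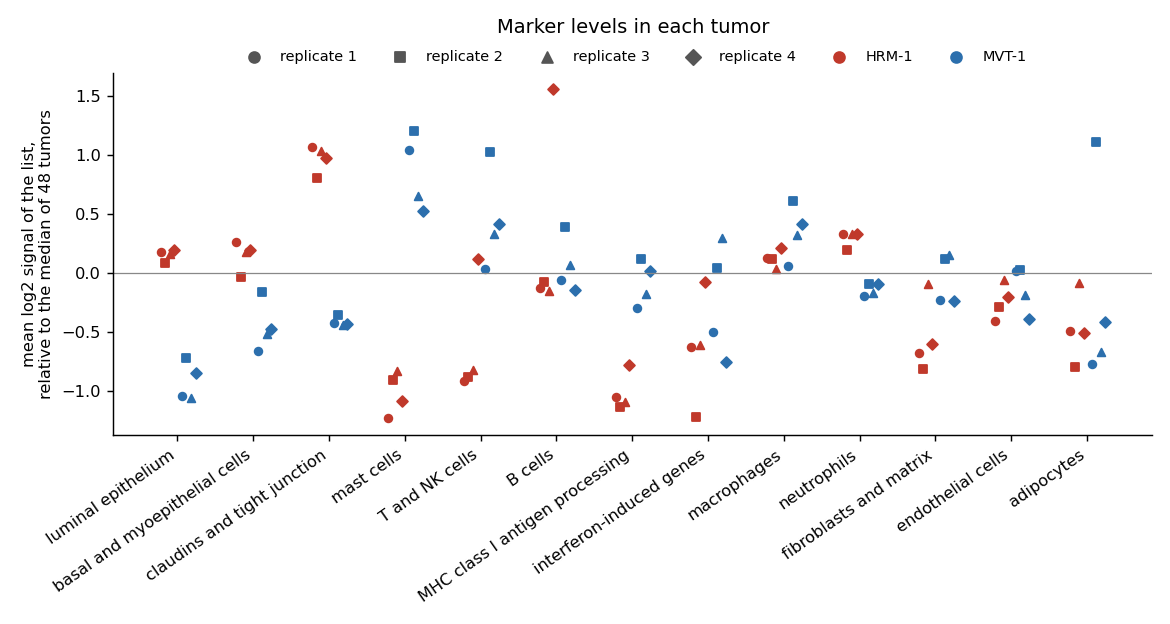
Mean log2 signal of 13 marker lists in each tumor, relative to the median of the 48 tumors, with HRM-1 in red, MVT-1 in blue and a symbol for each replicate number. The luminal, basal, claudin, mast cell, MHC class I and neutrophil levels do not overlap between the groups, and HRM-1 replicate 4 lies apart from its group in B cell genes at 1.56 and in T and NK cell genes at 0.12.

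Neutrophil genes were higher in 3 of 11, with none lower and a median of 0.12, a share of calls near the 20.5% over all genes. Cxcr2, a chemokine receptor of neutrophils, was measured at 8.81, 8.05, 8.48 and 8.68 in HRM-1 and at 5.96, 6.22, 5.63 and 6.87 in MVT-1, a difference of 2.34 (adjusted p = 3.8e-06). Csf3r, the receptor of their growth factor, was higher by 0.88 (adjusted p = 0.00012) and S100a8, a calcium-binding protein of their cytosol, by 0.83 (adjusted p = 0.0022). Neutrophil marker levels were 0.19 to 0.33 in HRM-1 and -0.19 to -0.09 in MVT-1. Of 11 macrophage genes 1 passed, Cd68, at -0.57, and it lost the call without MVT-1 replicate 1 or MVT-1 replicate 4 (adjusted p = 0.051 and 0.059). None of 5 B cell genes and none of 7 adipocyte genes passed.

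Chemokines and cytokines differed in both directions, with 7 of 25 higher and 8 lower and a median of -0.32. By comparison, 11.4% of all genes were higher and 9.07% lower. Il1a, an alarm cytokine of epithelium, was measured at 9.40, 9.15, 8.63 and 9.12 in HRM-1 and at 6.11, 5.64, 4.76 and 5.93 in MVT-1, a difference of 3.47 (adjusted p = 2.5e-08). Csf3, the growth factor of neutrophils, was higher by 1.00 (7.64 ± 0.24 against 6.64 ± 0.17, SD, n = 4, adjusted p = 5.2e-06) and Csf2 by 0.54 (adjusted p = 0.00032). Cxcl1 and Cxcl5, ligands of Cxcr2, were higher by 1.05 and 1.30. Among the lower genes, Ccl2, which draws monocytes, differed by -1.70 (9.99 ± 0.18 against 11.69 ± 0.31, SD, n = 4, adjusted p = 0.00096), Tslp, an epithelial cytokine of allergic inflammation, by -0.53 (adjusted p = 8.8e-05), and the interferon-induced ligands Cxcl9 and Cxcl10 by -1.33 and -1.0. Mean signals in HRM-1 and MVT-1 lay below the array medians for Tslp (5.43 and 5.96) and Csf2 (5.99 and 5.44). The count of higher genes was 6 or 7 without each tumor, but the count of lower genes dropped to 3 without MVT-1 replicate 2 or MVT-1 replicate 4 and to 4 without HRM-1 replicate 1 or HRM-1 replicate 2.

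The remaining genes among the 12 largest decreases had no common list. Cmbl, a hydrolase, was measured at 6.25, 6.38, 6.77 and 6.65 in HRM-1 and at 10.21, 10.39, 10.44 and 10.17 in MVT-1, a difference of -3.79 (adjusted p = 3.9e-07). Orm3, of the orosomucoid family of acute phase proteins, differed by -3.21 (adjusted p = 2.3e-10), Adgrg3, an adhesion receptor, by -3.21 (adjusted p = 2.7e-08), Slc15a2, a peptide transporter, by -3.15 (adjusted p = 1.5e-11), and Mustn1, a small nuclear protein of the musculoskeletal system, by -3.05 (adjusted p = 8.8e-05). MVT-1 had the highest mean of the 12 models for Cmbl, Orm3, Adgrg3 and Mustn1, and the tumors of the groups did not overlap in any of the 5 genes.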

How the data were processed

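RNA of 48 tumors, 4 labelled biological replicates of each of 12 models, was hybridized to Affymetrix mouse gene arrays. Values are log2 signals of 35556 transcript clusters, as the authors deposited them after their own processing, whose software and normalization the sources used here do not give. Precision is limited by the number of arrays. Groups came from sample titles. Clusters naming 1 gene (21789) were kept, those naming several (1621) or none (12146) were not, and the brightest on average stood for each of 999 genes with several, giving 19938 genes without a filter on dim ones. The highest correlation between arrays was 0.997, and none were duplicates.

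With limma 3.58.1 in R 4.3.3, 1 group per model was fitted over the 48 arrays and HRM-1 minus MVT-1 tested, with Benjamini-Hochberg adjustment over all genes at 0.05; adjusted p-values are from this fit unless another setting is named. In this fit the spread is that between tumors of 1 line each, pooled over the 12 models, and not that of the 8 tumors alone. Exact permutation tests of 4 against 4 cannot go below p = 0.0286. On simulated data with 200 changed genes among 19938, 88.5% were recovered at a log2 change of 1 (13 false of 190 calls) and 61.5% at 0.5 (5 of 128).

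The comparison, its marker and the 34 gene lists (429 of 461 listed genes measured) were chosen with earlier results of these data known. Lists therefore carry no test, and the p-values of Pkhd1 are description only. Named genes are Pkhd1, the TGF-β isoforms, Myc, Vegfa, Ras genes, the 12 largest increases and decreases without overlap (predicted symbols, olfactory and vomeronasal receptors and immunoglobulin segments left out), in each list at most 4 of smallest p, and the longest runs of neighbors; others were picked after their values were seen. RefSeq gave an order for 19845 genes. Alternatives were quantile normalization, array centring, averaging clusters, dropping the dimmest 30%, a trended or robust prior, a replicate block, smaller sets of arrays, the methods' t-test and omission of single tumors. List counts under these settings and the E2-box were added after the data were seen. Python 3.11.15, numpy 2.4.6, pandas 2.3.3 and matplotlib 3.10.9 were used.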

Additional observations from a re-analysis of the deposited data

Results flagged for a closer look

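Of 82 groups of 4 tumors, 6 held a tumor whose gap to its nearest neighbor took up a larger share of the range of its group than Dixon's 95% critical value allows, where chance alone gives about 1 in 20. HRM-1 replicate 4 accounted for 3 of them. Its B cell marker level was 1.5597, against -0.0760 in the nearest HRM-1 tumor, its T and NK cell level was 0.1183 against -0.8201, and its glutathione transferase level was 0.3590 against 0.2063. The neutrophil level of HRM-1 replicate 2 was 0.1929, below the nearest at 0.3290. The fatty acid and sterol synthesis level of HRM-1 replicate 3 was 0.2150, above the nearest at 0.1180. The milk protein level of MVT-1 replicate 3 was 0.0161, below the nearest at 0.2399.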

How the results depend on the processing

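The difference of Pkhd1 passed under every setting tried, at 3.36 to 3.43 as single tumors were left out. Leaving out each tumor gave 3245 to 3695 changed genes, 1795 to 2090 higher and 1415 to 1659 lower, with the fewest changed without HRM-1 replicate 1. With only the 8 arrays of the comparison in the fit, 6323 genes changed and 2907 were lower, and 3949 of the 4090 calls were shared. The methods' t-test without adjustment gave 7763 changed, 3971 higher and 3792 lower, and after Benjamini-Hochberg adjustment 5455, 3051 and 2404. Fitting only the FVB/N arrays gave 2956 changed genes. The other settings gave 3936 to 4164. Of 2543 values of 134 named genes, 2425 kept their direction and side of the threshold, 110 no longer passed, 5 newly passed and 3 changed sign. The 3 were Tgfb2 without HRM-1 replicate 4 (-0.0029), without MVT-1 replicate 2 (-0.0116) and without MVT-1 replicate 4 (-0.126), with a range of -0.126 to 0.4404 over all tumors left out, and the cause was not tested. Of 1292 list counts, 140 moved by more than 1.5 times. The fit with the replicate number as a block gave 4052 changed genes, 2263 higher and 1789 lower, and 3.40 for Pkhd1; deviations of same-numbered tumors correlated at -0.29 to 0.24, so the tumors were taken to share only a number.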
